A study of Mus musculus with 4 samples.

Results

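The potassium channel genes described here are the protein-coding genes of the GRCm38 reference whose symbol begins with Kcn, apart from the 6 genes of the Kv4 channel complex (Kcnd2, Kcnd3 and Kcnip1 to Kcnip4). The rule gave 88 genes of the 21900 coding genes in the reference, whether or not they carried a peak. Sites touched by Elavl RNA-binding proteins had been mapped in mouse by HITS-CLIP, in which ultraviolet light fixes a protein to RNA and the RNA fragments that come down with the protein are sequenced. Cortex tissue was represented by 3 samples (25 nt degenerate linker) that share 1 list of 97775 peaks. N2A, a mouse neuroblastoma cell line, was represented by 1 sample (7 nt linker) with a list of 7335 peaks. Neither the strain, the age nor the antibody is given in the sources used here, and no treatment or genotype is named for either group. The cortex list carries the word 2month in its label, which the sources do not explain.

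Each list gave 1 p-value per peak and no read count, so depth is unknown, no value belongs to a single sample, and no spread between replicates could be computed. Every value below is therefore a description of 1 list, without a test, and intervals cover counting error only. Deposited p-values ran up to 0.09993 in cortex and 0.09971 in N2A, so the lists include weak calls. In cortex 77.2% of peaks were under 0.05 and 50.3% under 0.01, and in N2A 79.7% and 55.2%. All 4 markers of cortical excitatory neurons and both markers of inhibitory neurons that were looked up had cortex peaks and 0 N2A peaks, whereas of 6 sympathoadrenal markers 1 had a cortex peak and 4 had N2A peaks. Dbh, an enzyme of noradrenaline synthesis, had 0 in both lists. Linker length and the number of samples differed with the source, so these cannot be told apart from the difference between tissue and cell line.

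Potassium channels let potassium ions leave the cell and so set the resting potential, shape the action potential and limit repetitive firing. Voltage-gated channels are tetramers of alpha subunits that open on depolarization. Inward rectifiers and tandem-pore channels carry current near the resting potential, and calcium- or sodium-activated channels couple firing to ion entry. Elavl2, Elavl3 and Elavl4 are neuronal proteins that bind U-rich and AU-rich RNA in introns and in 3′ untranslated regions, where they are known to influence splicing, stability and translation. A peak marks a place where such a protein was crosslinked, and its frequency also depends on how much of the RNA the cells made, which was not measured.

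Cortex peaks lay in 50 of the 88 potassium channel genes (56.8%), against 40.8% of all coding genes. The 50 genes held 965 peaks, 0.987% of the cortex list (exact 95% interval 0.926 to 1.05). At least 10 peaks were found in 21 members (23.9%, against 10.3% of coding genes), and at least 50 in 8 members (9.09%, against 1.26%). The remaining 38 members had 0 peaks in both lists. Among genes with a peak, the median count was 5 in the members and 4 in all coding genes. For voltage-gated sodium and calcium channel genes, taken by their Scn and Cacn symbols, the same count gave 32 of 40 genes (80%). Those genes were also longer, with a median span of 104 kb against 32.2 kb for the members and 17.1 kb for all coding genes.

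**Figure D1:**
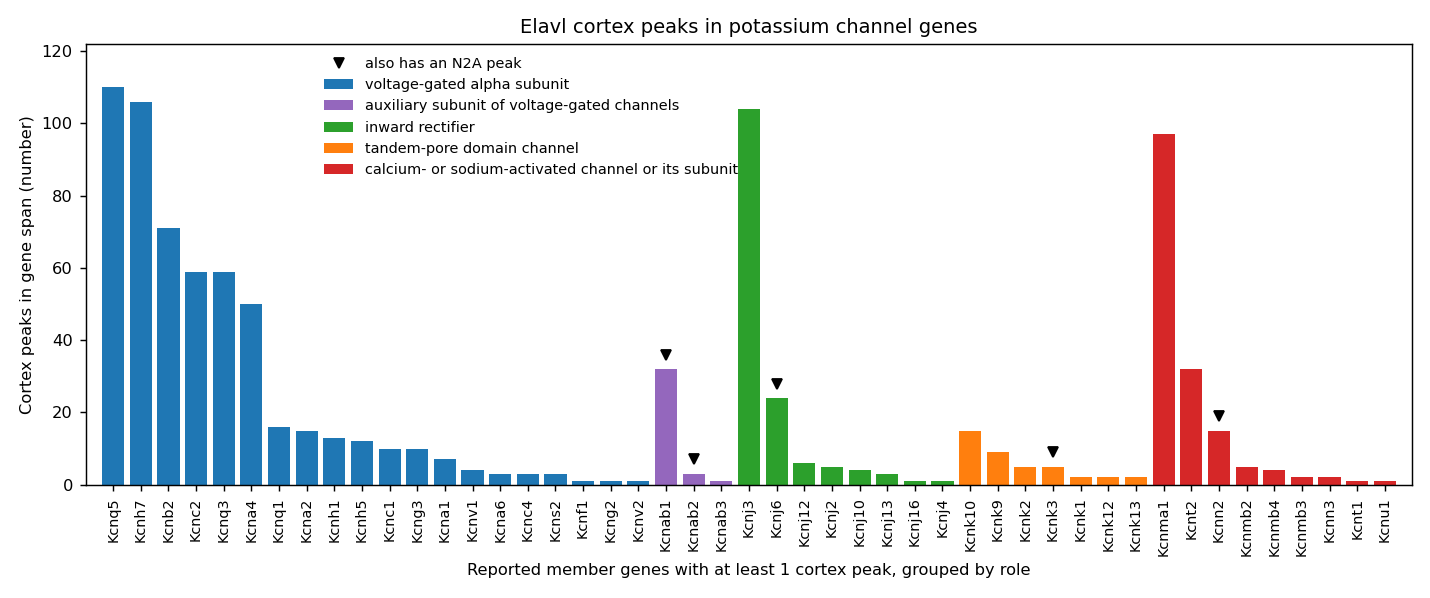
The bars give the number of cortex peaks in the span of each potassium channel gene that had any and is reported here, grouped by role, and a triangle marks genes that also had an N2A peak. Kcnq5, Kcnh7, Kcnj3 and Kcnma1 stand highest with 97 to 110 peaks, and 4 of the 5 triangles lie outside the tallest bars of their groups, Kcnab1 being the exception.

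Peaks were unevenly divided among the members. The 4 genes with the most, namely Kcnq5, Kcnh7, Kcnj3 and Kcnma1, held 417 peaks, 43.2% of those in all members, and the 8 genes with at least 50 held 656 (68%). At the other end, 8 members had exactly 1 peak. Gene span went along with the count. Over the 50 members with a peak, span and count had a Spearman correlation of 0.627, against 0.594 over the 8939 coding genes with a peak, and genes of a list share the same libraries.

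By length class, peaks were found in 4 of 21 members under 10 kb (19%, against 15.7% of coding genes of that length). They were found in 7 of 22 members of 10 to 30 kb (31.8%, against 41.6%) and in 21 of 26 members of 30 to 100 kb (80.8%, against 61%). All 8 members of 100 to 300 kb had peaks (75.6% of coding genes), as did 10 of 11 over 300 kb (90.9%, against 89%). With genes at 0 counted, the median of those 8 members was 13.5 peaks and that of coding genes of the same class was 6, whereas over 300 kb the medians were 32 and 29. These differences by class were not tested, and each class holds few members. Peaks on either strand were counted, for members and coding genes alike. The counts include Kcnq1 (over 300 kb), Kcnmb3 (30 to 100 kb) and Kcnj13 (10 to 30 kb), whose peaks all lay on the strand of an overlapping gene.

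**Figure D2:**
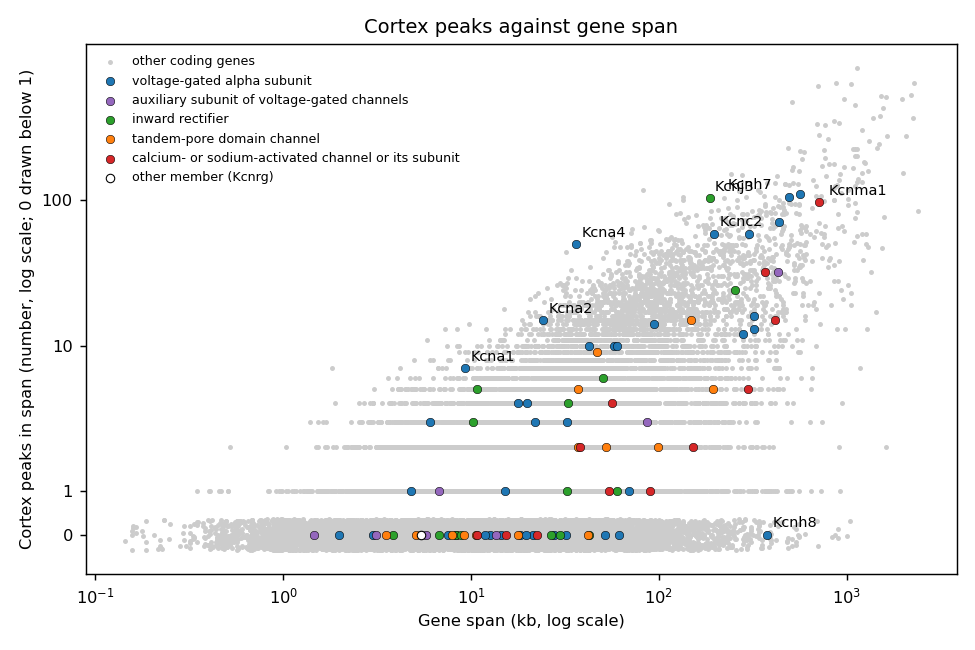
Each dot is a coding gene, placed by its span in kb and its number of cortex peaks on log scales, with genes at 0 drawn in a band below 1 and potassium channel genes coloured by role. Kcna4, Kcna1, Kcna2 and Kcnj3 lie on the upper edge of the cloud for their length, and Kcnh8, at 376 kb, is the only member over 100 kb in the band at 0.

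The voltage-gated alpha subunits were the largest role, with peaks in 23 of 38 genes and 582 peaks, 60.3% of the members' total. The Kv7 genes (Kcnq), whose heteromers carry the M-current that restrains repetitive firing, held 195 of these, 16 of them in Kcnq1 on the strand of its antisense RNA. Kcnq5 had 110 peaks in 564 kb and Kcnq3 had 59 in 300 kb. Kcnq5 and Kcnq3 thus differed in number of peaks but hardly in density, with 1.95 and 1.96 peaks per 10 kb. The peak of lowest p in Kcnq3 lay at chr15:66186408-66186459 (GRCm38, minus strand), 200 kb from the gene end (deposited p 1.19e-66). In Kcnq5 it lay 2.05 kb from the end, at chr1:21400448-21400499 (minus strand, deposited p 2.14e-38).

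The ether-a-go-go genes (Kcnh) had peaks in 3 of 8 members, with 131 peaks in all, most of them in Kcnh7. Kcnh7, which encodes an Erg-type channel, had 106 peaks in 491 kb, and its strongest peak lay deep inside the gene, 404 kb from the end, at chr2:63097500-63097550 (minus strand, deposited p 3.69e-91). Kcnh1 had 13 peaks in 321 kb, and 66.4% of coding genes over 300 kb had more. Kcnh5 had 12 in 280 kb, and 35.1% of coding genes of 100 to 300 kb had more. Kcnh8, also of this family, had 0 in 376 kb, and so did Kcnh2, Kcnh3, Kcnh4 and Kcnh6, which span 18.3 to 32.1 kb. Among 557 coding genes over 300 kb, 81 had more cortex peaks than Kcnh7.

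The Kv1 genes (Kcna), which encode low-threshold channels of axons and presynaptic terminals, had peaks in 4 of 8 members, and 3 of them were dense for their length. Kcna4, the inactivating Kv1 subunit, carried 50 peaks in 36.2 kb, or 13.8 per 10 kb, and of 5077 coding genes of 30 to 100 kb only 13 had more. Kcna1 carried 7 in 9.34 kb (7.5 per 10 kb), and 16 of 7938 genes under 10 kb had more. Kcna2 carried 15 in 24.1 kb (6.22 per 10 kb), and 27 of 6456 genes of 10 to 30 kb had more. Kcna1 and Kcna2 also held strong peaks. In Kcna1 the lowest p was 1.17e-217, at chr6:126641451-126641502 (minus strand), and 161 coding genes reached a lower p. In Kcna2 it was 6.74e-174, at chr3:107105732-107105782 (plus strand), 9.22 kb from the gene end. The peaks of Kcna4 were numerous but weaker, with a lowest p of 8.88e-30.

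All 15 peaks of Kcna2 lay in the last 60% of its span, and the first 13.9 kb had none. The 50 peaks of Kcna4 were spread along the gene with a median step of 482 nt between neighbouring starts and no gap above 3.53 kb. Kcna6 had 3 peaks, all within 4.55 kb of its start, and the span there is shared with Gm33581, a long noncoding RNA gene on the opposite strand. Kcna3, Kcna5, Kcna7 and Kcna10 had 0.

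Kv2 genes encode delayed rectifiers. Kcnb2, of this group, had 71 peaks over 437 kb, but its lowest p was only 9.65e-12, and 3398 coding genes had a lower one. Of its peaks, 15 also lay in the coding gene Gm51415, so they cannot be given to 1 gene. Among Kv3 genes, whose fast channels allow high-frequency firing, Kcnc2 had 59 peaks in 196 kb, with the strongest 0.274 kb from the end at chr10:112465980-112466030 (plus strand, deposited p 1.38e-132). Kcnc1 had 10 in 42.5 kb and Kcnc4 had 3, and all 3 peaks of Kcnc4 were in its last 5 kb.

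The electrically silent subunits (Kcnf, Kcng, Kcns and Kcnv), which modify Kv2 channels, had peaks in 6 of 10 genes but only 20 peaks in all. Kcng3 held 10 of these, in a stretch from 5.43 to 12.3 kb before its end, and its lowest p was 1.36e-07. Kcnd1, the Kv4 gene not named in the rule's exclusions, had 0 in 14.5 kb.

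Of the auxiliary subunits, all 3 Kcnab genes had peaks and all 5 Kcne genes had 0. The Kcnab genes encode cytoplasmic beta subunits of Kv1 channels. Kcnab1 had 32 peaks in 429 kb, with the strongest 250 kb from the end at chr3:65128596-65128647 (plus strand, deposited p 6.63e-21). Of these, 22 lay in the span of A330015K06Rik, a noncoding gene on the minus strand, and 3 of the 22 were on that strand. Kcnab2 had 3 peaks, of which the strongest lay 0.111 kb from the end at chr4:152390855-152390906 (minus strand, deposited p 1.74e-86). Kcnab3 had 1 peak. The Kcne genes encode small single-span subunits and cover 1.45 to 13.5 kb.

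Inward rectifiers had peaks in 8 of 15 genes and 148 peaks. Kcnj3 and Kcnj6 encode the G-protein-gated subunits GIRK1 and GIRK2, which combine in neurons to give the slow inhibitory current of GABA-B and other receptors. Kcnj3 had 104 peaks in 186 kb (5.58 per 10 kb), and 5 of 1872 coding genes of 100 to 300 kb had more. Its strongest lay 1.39 kb from the end at chr2:55596704-55596754 (plus strand, deposited p 5.57e-92). Kcnj6 had 24 in 253 kb, with the strongest at chr16:94762143-94762193 (minus strand, deposited p 9.31e-41). The other GIRK genes, Kcnj9 and Kcnj5, had 0 in 8.81 and 29.7 kb. Kcnj2, a classical inward rectifier, had 5 peaks in 10.7 kb, all within 5 kb of its end. Kcnj10, the Kir4.1 channel of astrocytes, had 4, also all within 5 kb of its end. The KATP pore genes Kcnj8 and Kcnj11 had 0.

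Calcium- and sodium-activated channels and their subunits had peaks in 9 of 12 genes and 159 peaks, of which Kcnma1, the pore of the large-conductance BK channel, held 97 in 713 kb. The strongest peak of Kcnma1 had the lowest p of any member, 9.36e-227, at chr14:23995300-23995351 (minus strand). It lay near the beginning of the gene, 8.85 kb after the transcription start listed by RefSeq and 703 kb from the end. The BK beta subunit genes Kcnmb2 and Kcnmb4 had 5 and 4 peaks, and Kcnmb1, known from smooth muscle, had 0. Kcnt2, a sodium-activated channel, had 32 peaks in 368 kb, and its relative Kcnt1 had 1, though with a p of 9.10e-34. Of the small-conductance SK genes, Kcnn2 had 15, Kcnn3 had 2 and Kcnn1 had 0. The strongest peak of Kcnn2 lay 0.124 kb from its end (deposited p 1.12e-22), where the noncoding gene A330093E20Rik overlaps it.

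Tandem-pore genes (Kcnk), which encode background leak channels, had peaks in 7 of 14 genes and 40 peaks in all. Kcnk10 had 15 peaks, Kcnk9 had 9, and Kcnk2 and Kcnk3 had 5 each. Of these peaks 17 of 40 lay in the last 5 kb (42.5%), and the genes' median span of 37 kb was shorter than that of the Kv7 genes (300 kb), where 18 of 195 did (9.23%). Over all coding genes the share was 37.7% for spans up to 100 kb and 8.61% for longer ones. Whether the difference between Kcnk and Kv7 genes follows span or role was not tested. Kcnk1 had 2 peaks, the stronger 0.328 kb from its end at chr8:126030307-126030357 (plus strand, deposited p 3.86e-64). In Kcnk10 the strongest peak lay at chr12:98574207-98574257 (minus strand), 0.87 kb after the nearest listed start.

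Where peaks lay along the genes was examined next, since binding near the gene end and binding deep inside a gene concern different parts of an RNA. Within 5 kb of the gene end lay 149 of 965 cortex peaks in members, or 15.4% (95% interval 13.3 to 17.9), against 19.9% (19.7 to 20.2) over all coding genes. Such a peak was present in 41 of 88 members, against 31.4% of coding genes. Split by span, the shares were 10.6% in members over 100 kb against 8.61% in coding genes of that length, and 35.6% against 37.7% up to 100 kb. The single strongest peak lay in that window in 24 of 50 members (48%), against 59.7% of coding genes with peaks, and in 5 of 18 members over 100 kb (27.8%, against 43.7%). The exons of these genes were not used here, so peaks outside the window could not be divided into introns and exons.

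Long members did not share 1 arrangement. In Kcnq5 the counts in successive 20% parts of the span, from start to end, were 54, 29, 14, 3 and 10. In Kcnh7 they were 36, 41, 11, 3 and 15, so both genes had most peaks in the first 40% and a second group at the end. Kcnma1 had 18, 16, 3, 20 and 40, with most at the end. Kcnc2 had 10, 11, 10, 11 and 17, nearly even but for a higher last part. In Kcnj6, 20 of 24 peaks lay in the last 20%, and in Kcnn2 14 of 15 lay in the last 40%. Over all members above 100 kb the 5 parts held 22.8%, 24.5%, 14.4%, 13.4% and 25% of peaks, and over all coding genes of that length 25.7%, 20.5%, 17.6%, 15.4% and 20.7%.

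**Figure D3:**
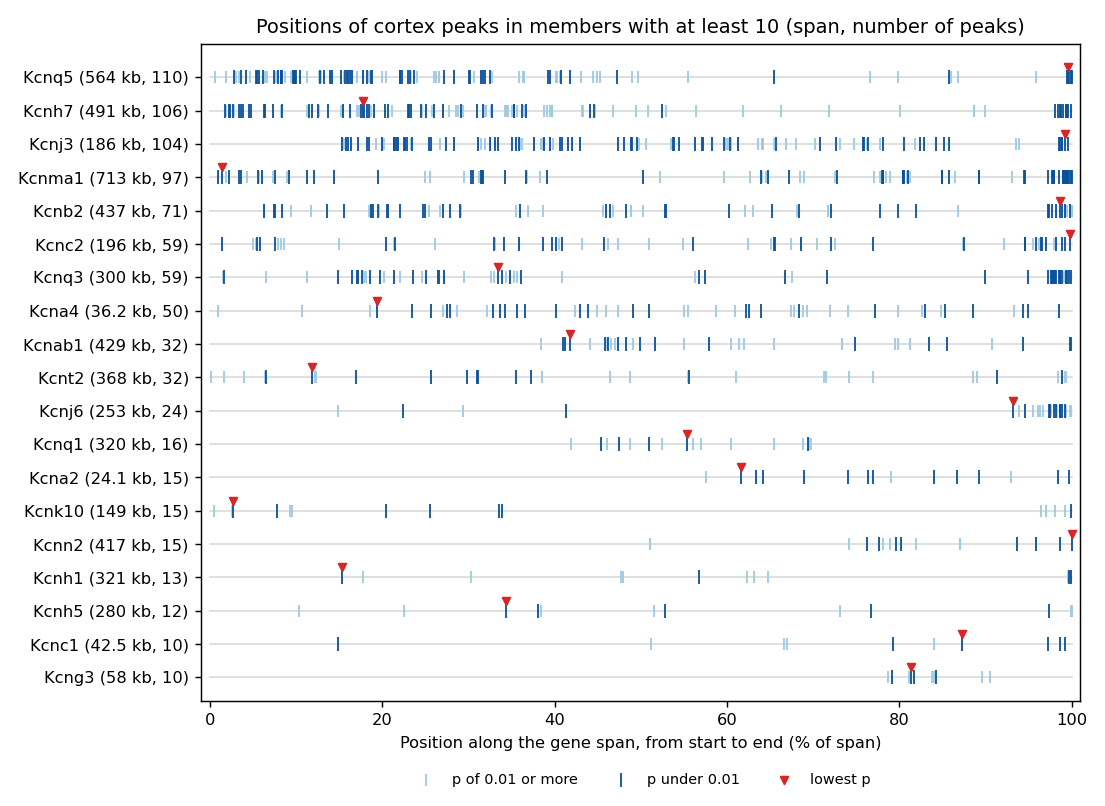
Each row is a member with at least 10 cortex peaks that is reported here, and each tick is a peak placed by its position along the span in percent, dark where p was under 0.01, with a red triangle at the lowest p. Positions run along the strand that the gene's peaks share (for Kcnq1, the minus strand of its antisense RNA); in Kcnab1, where 3 peaks are on the other strand, all follow the gene's own direction. Kcnq5 and Kcnh7 show ticks massed in the first 40% and a group at the end, while Kcnj6 has nearly all ticks at the end.

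The starts of the genes held few peaks. Of the 83 RefSeq promoter windows of 63 members, from 250 bases before to 50 after a transcription start, 0 held a peak of either list. Over all coding genes 76 of 21263 windows held a cortex peak (0.357%), a share at which fewer than 1 of the members' windows would hold one. Within 5 kb of the start of a span lay 24 of 965 member peaks (2.49%, against 6.31% over all coding genes). These shares were not split by span, and genes with a peak were longer among the members (median 59 kb, against 36.2 kb). Distance followed the peak's strand, so 2 opposite-strand peaks each in Kcnj13 and Kcnmb3 were counted, which lay near those genes' own ends.

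Some peaks within member spans lay on the strand of another gene. For the 33 members with a cortex peak and a listed strand, 8 of 743 peaks (1.08%) were on the opposite strand, against 1.8% over all coding genes. All 3 peaks in Kcnj13, a channel of the choroid plexus, were on the plus strand within Gigyf2, and both peaks in Kcnmb3 were on the plus strand within Pik3ca. The other 3 were those of Kcnab1. Without opposite-strand peaks, 48 members had cortex peaks, and 47 when Kcnq1 was left out as well. For every member without a listed strand, Kcnq1 among them, the strand was taken from most of its own peaks. The limit was therefore a check only for the 33 members with a listed strand.

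Kcnq1, the cardiac and epithelial member of the Kv7 family, holds an antisense RNA gene. Kcnq1 itself is not listed in the strand table used here, but its imprinted antisense RNA Kcnq1ot1 is, on the minus strand, and this RNA runs against Kcnq1 from a start inside the channel gene. All 16 cortex peaks in the 320 kb span of Kcnq1 were on the minus strand. Of these, 12 lay in the 83.4 kb span of Kcnq1ot1, including the strongest at chr7:143249487-143249538, 47 kb after the Kcnq1ot1 start (deposited p 4.02e-34). The other 4 lay past its annotated end, 89.9 to 92.6 kb after the start, with a lowest p of 3.58e-07. The 16 peaks thus follow the strand of the antisense RNA, and 0 followed the opposite strand. The RefSeq sequence around the start of that RNA is shown because the distances of these peaks are measured from it. It covers chr7:143296498-143296797 on the minus strand of GRCm38.p6, with the 50 transcribed bases in capitals.
Kcnq1ot1 start: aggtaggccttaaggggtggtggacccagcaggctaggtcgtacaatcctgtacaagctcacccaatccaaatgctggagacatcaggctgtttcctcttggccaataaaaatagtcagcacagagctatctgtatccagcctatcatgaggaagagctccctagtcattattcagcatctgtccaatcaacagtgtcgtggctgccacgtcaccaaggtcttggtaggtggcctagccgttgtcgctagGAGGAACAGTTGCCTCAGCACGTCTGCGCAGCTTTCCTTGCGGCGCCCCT
The peaks began 3.69 kb after this window's start site, and the letters under the peaks themselves were not analysed here.

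**Figure D4:**
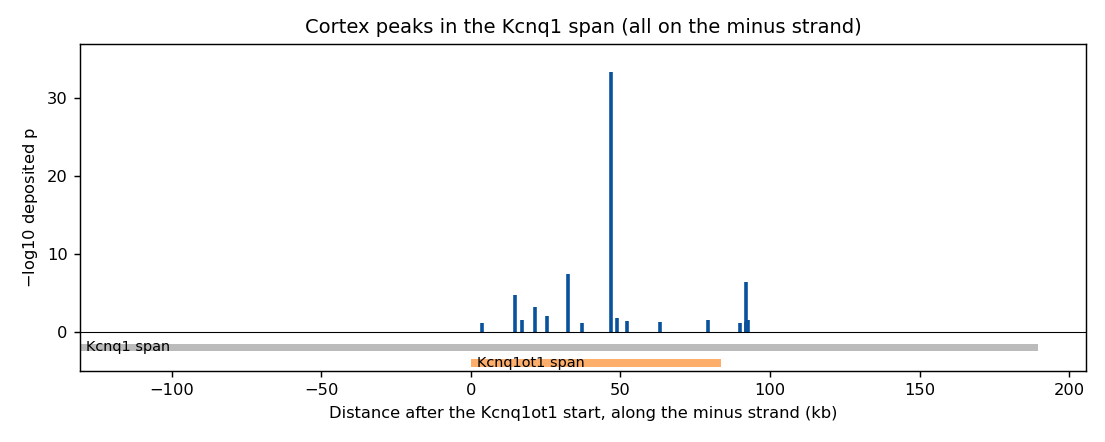
Vertical lines give −log10 of the deposited p of the 16 cortex peaks in the Kcnq1 span, against distance in kb from the start of Kcnq1ot1 along the minus strand, with the spans of both genes as bars beneath. The peaks lie between 3.69 and 92.6 kb after that start, the highest line at 47 kb, and the remaining span of Kcnq1 has none.

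Peaks also lay past some annotated gene ends. Kcna3, the Kv1 channel also known from lymphocytes, is annotated over only 1.97 kb and had 0 peaks in its span, but 2 cortex peaks lay 0.122 and 0.937 kb past its end on the same strand, with a lowest p of 1.01e-32. Within 10 kb past the end, on the gene's strand and outside every annotated gene, 24 cortex peaks and 0 N2A peaks were found for 8 of the 63 members with a listed strand. Counting them, 51 members had cortex peaks. Which transcripts these peaks belong to was not tested. The same count was not made over all coding genes, so whether 8 of 63 is an unusual share is unknown.

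**Figure D5:**
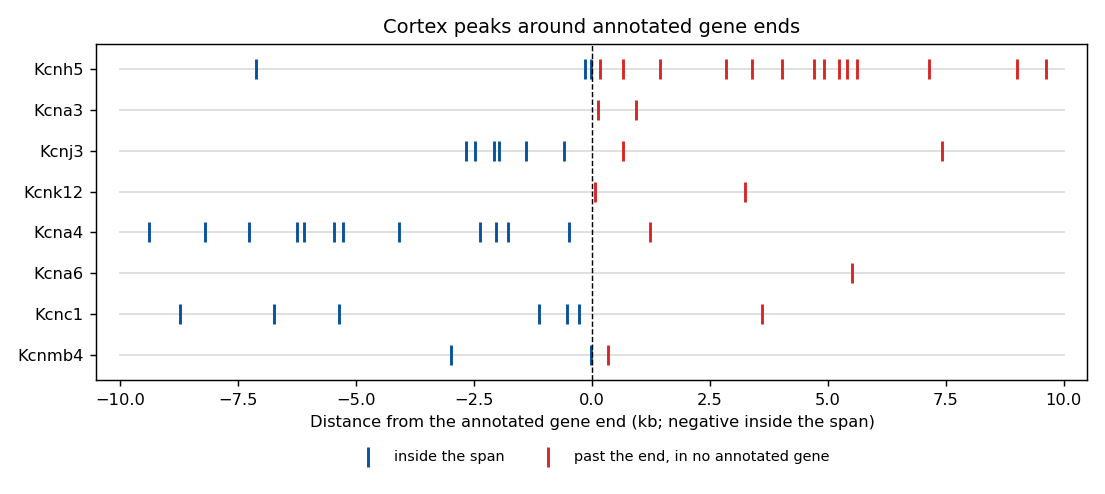
Ticks mark cortex peaks on the gene's strand around the annotated end of the 8 members that had peaks past it, in kb, blue inside the span and red beyond it in no annotated gene. Kcnh5 carries 14 red ticks out to 9.62 kb, and Kcna3, Kcna6 and Kcnk12 show only red ticks in this window.

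In N2A cells 5 of 88 members had a peak (5.68%), against 14.5% of all coding genes, and they held 6 peaks, 0.0818% of the N2A list (exact 95% interval 0.0300 to 0.178). Of the sodium and calcium channel genes, 1 of 40 had an N2A peak (2.5%), so a share below that of all coding genes was not particular to the potassium channel genes. Near the end, N2A peaks lay in 2 members, against 12.3% of coding genes. The ratio of cortex to N2A peaks was 161 in the members and 13.3 over the whole lists. None of the 38 voltage-gated alpha subunit genes had an N2A peak (the members with one were 2 Kcnab genes, Kcnj6, Kcnk3 and Kcnn2). Expression was not measured, so absence of peaks and absence of the RNA cannot be told apart.

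Kcnk3, the acid-sensitive leak channel TASK1, was the only member with 2 N2A peaks. They lay 1.40 and 2.01 kb from its end, at chr5:30623816-30623866 (deposited p 0.000253) and chr5:30623214-30623264 (0.0433), both on the plus strand. The first shares 35 nt with the strongest cortex peak of Kcnk3, at chr5:30623801-30623851 (deposited p 1.77e-33), and the second 38 nt with another cortex peak. The single N2A peaks of Kcnab1 (deposited p 0.0695), Kcnab2 (0.0682) and Kcnn2 (0.0457) had deposited p-values above the median of their list, 0.00605, and each overlapped a cortex peak, by 23, 46 and 34 nt. The N2A peak of Kcnj6 (deposited p 0.00545) was on the strand opposite to the gene, and the nearest cortex peak on that strand was 208528 nt away. In all, 5 of 6 N2A peaks in members overlapped a cortex peak on the same strand (83.3%, exact 95% interval 35.9 to 99.6), against 42.5% (41.4 to 43.7) of the 6936 N2A peaks in coding genes. The interval of the members includes the value of all coding genes.

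Proteins that hold, anchor or feed potassium channels were counted as a companion list of 39 genes. Cortex peaks were found in 29 of them (74.4%) and N2A peaks in 11 (28.2%), against 40.8% and 14.5% of coding genes. The list was chosen by name and its genes spanned 1.28 to 2240 kb. These shares were not split by span, so whether they follow span or role was not tested. Genes that cluster Kv1 channels on axons and at synapses had cortex peaks in 9 of 11 cases, among them Adam22 with 80 peaks (lowest p 1.15e-220) and the scaffold gene Dlg4 with 13 (5.31e-165). Amigo1, a Kv2 partner, had 5 peaks in 6 kb. Of the hyperpolarization-activated pacemaker channel genes, Hcn3 had 1 peak, and Hcn2 and Hcn4 had 0. Both sulfonylurea receptor genes of KATP channels, Abcc8 and Abcc9, had 0, as did their pore genes among the members. All 6 Na,K-ATPase subunit genes in the list had cortex peaks, with 26 in Atp1b3, and Slc12a5, the neuronal chloride exporter KCC2, had 6.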

How the data were processed

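Elavl HITS-CLIP peaks of 3 cortex samples (1 list) and 1 N2A sample (1 list) were used as deposited. Novoalign, without a version, and the human build hg19 are named in the submitters' processing notes, yet chromosome names are those of mouse. No source used here names the peak caller, its filters or how samples were merged. The p-value of each peak was made by the authors and deposited, and whether it was adjusted is not stated; it was used to rank peaks within a list. Coordinates were read as GRCm38: 94.9% of cortex and 94.6% of N2A peaks touched a coding span of RefSeq GRCm38.p6, against 39.3% to 44.8% after shifts of 1, 3 or 5 Mb. The deposited positions were left as they stood, with their first base (0 or 1) unknown.

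A peak belonged to every coding gene whose span it shared at least 1 nt with, on either strand. The gene strand came from RefSeq promoter windows (63 members), otherwise from most of its peaks. Distance to the gene end or start was measured on the peak's own strand. Intervals at 95% are exact (Clopper-Pearson) for the members' share of a list and of overlapping N2A peaks, otherwise Wilson. PCR reads are not independent molecules. Counts used Python 3.11.15, pandas 2.3.3 and scipy 1.17.1, and the overlap step was tested on simulated data. Named genes were the 20 members with the most cortex peaks, the 10 with the lowest p, the 10 densest with at least 5 peaks, every member with an N2A peak, the leading member of each family, and members over 100 kb with 0. Some genes that these rules name are not reported here, though counts over gene groups include them. Other names are relatives of these, or were chosen after their values were seen. Members, gene lists and rules were chosen with earlier results of these data known.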

Additional observations from a re-analysis of the deposited data

Results flagged for a closer look

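Kcnh5, a voltage-gated channel of the ether-a-go-go family, drew attention through peaks that the counts by gene span leave out. Within 10 kb past its annotated end 14 cortex peaks lay on its strand in no annotated gene, more than the 12 inside its 280 kb span. They ran from 0.161 to 9.62 kb past the end, and the lowest p was 1.52e-18, against 1.59e-10 inside the span. The 24 peaks found past the ends of members were otherwise spread over 7 genes with 1 or 2 each. Their source was not tested. Peaks past the ends of other coding genes were not counted, so how unusual the 14 peaks of Kcnh5 are is unknown.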

How the results depend on the processing

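Leaving replicates out was not possible, since the lists give no value per sample. No paired analysis was possible because each group has 1 list and no values by replicate number. Of 35 recomputed values, 5 of them under settings chosen after seeing the data, 23 stayed within 1.5 times the count or within the interval of the share. For the N2A share near the end (3 of 6 peaks) that interval was 18.8% to 81.2%, too wide to register most moves. Settings by gene strand could not remove members whose strand came from their own peaks. The number of members with cortex peaks was 41 to 51 under every alternative, and 43 with p under 0.01. Peaks in members were 529 in cortex and 2 in N2A with p under 0.01, and 524 and 2 in the stronger 50% of each list. Members with N2A peaks were 2 under either limit and 2 with peaks in the last 5 kb alone. The share of cortex peaks near the end was 8.6% with a window of 2 kb, 23.7% with 10 kb, 18.5% with p under 0.01 and 18.7% in the stronger 50%. With p under 0.01 in both lists, 1 of 2 N2A peaks overlapped a cortex peak. The N2A counts are too small to rank members, and depth is unknown.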

Other observations

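Neighbouring channel genes on 1 chromosome differed in peaks in several cases. On chromosome 3, Kcna3, Kcna2 and Kcna10 follow each other with 52.8 and 68.1 kb between them. They had 0, 15 and 0 cortex peaks in spans of 1.97, 24.1 and 12.6 kb. The 2 cortex peaks just past the annotated end of Kcna3 are not in this count. On chromosome 6, Kcna5, Kcna1 and Kcna6 had 0, 7 and 3, in spans of 3, 9.34 and 32.5 kb. Kcnj9 and Kcnj10, 11.9 kb apart on chromosome 1, had 0 and 4, in spans of 8.81 and 32.9 kb. On chromosome 11, Kcnj16, expressed in glia and kidney, had 1 in 59.9 kb and Kcnj2, 38.2 kb away, had 5 in 10.7 kb. The pairs Kcnj5 and Kcnj1, Kcnk5 and Kcnk16, and Kcne2 and Kcne1 had 0 throughout.

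Members with exactly 1 cortex peak ranged widely in its deposited p. Kcnt1 had 1 cortex peak with a deposited p of 9.10e-34, at chr2:25889528-25889579 (plus strand), 28.7 kb from its end. Kcnj4, an inward rectifier, had 1 with a deposited p of 5.11e-10, 2.98 kb from its end. Kcnu1, a channel known from sperm, had 1 with a deposited p of 0.00843. The single peaks of Kcnab3, Kcnj16, Kcnf1 and Kcnv2 were weaker still, with deposited p-values from 0.0262 to 0.0793.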
